A study of Mus musculus with 4 samples.

Results

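The genes described here encode the nuclear subunits of mitochondrial complex I. They were chosen by name, as protein-coding mouse genes whose symbol begins with Ndufa, Ndufb, Ndufc, Ndufs, Ndufv or Ndufab followed by a digit, and the Ndufaf assembly factors were left out. The rule found 38 of the 55401 genes listed, and all 38 passed the filter of a mean of at least 10 counts in kidney and in heart. RNA from mice with cecal ligation and puncture (CLP), a surgical model of sepsis in which gut bacteria leak into the abdomen, was sequenced in 4 libraries. There was 1 library each of CLP kidney, CLP + MLT kidney, CLP heart and CLP + MLT heart, where MLT is melatonin (written CLP+MLT4 in the titles, without a meaning given for the 4), so no library had a replicate. All libraries are labelled C57BL/6. The kidneys came from male mice that the paper describes as aged 8 weeks, without giving their age at collection, and were taken 24 h after CLP. The CLP + MLT mice drank melatonin at 25 μg/ml for 14 days before the CLP surgery. For the hearts the sources give neither a dose nor a time, and for no library do they say how many mice were pooled. Both tissues of both groups had CLP, and sham mice were not analysed here.

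Complex I takes electrons from NADH and passes them through a flavin and a chain of iron-sulfur clusters to ubiquinone, while it pumps protons across the inner mitochondrial membrane. It is L-shaped. The peripheral arm, in the matrix, holds the N module, which oxidizes NADH, and the Q module, which reduces ubiquinone. The membrane arm holds the proton pumps. The catalytic core consists of subunits encoded in the nucleus, all in the peripheral arm, and of the mt-Nd subunits, which the mitochondrial genome encodes in the membrane arm. The accessory subunits, all nuclear, surround that core and are needed for its assembly and stability. Heart muscle and the kidney's proximal tubule are both rich in mitochondria.

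Of the 38 genes, 7 encode core subunits and 29 accessory subunits. Ndufa4 and Ndufa4l2 carry the name by history. The Ndufa4 protein is now counted as a subunit of complex IV, and Ndufa4l2 is its paralog, known as a gene that hypoxia induces. Between 15883057 and 22927905 reads were counted on genes per library, and the 38 genes together took 134479 counts in CLP kidney, 108684 in CLP + MLT kidney, 116075 in CLP heart and 51154 in CLP + MLT heart. These were 0.587% (95% exact binomial interval 0.583 to 0.590%), 0.660% (0.656 to 0.664%), 0.698% (0.694 to 0.702%) and 0.322% (0.319 to 0.325%) of the counts. CLP + MLT heart was thus the library with the lowest share. Genes of the mitochondrial genome took 14.8%, 24.2%, 31.6% and 36.0% of the counts in the same order, and without them the shares of the 38 genes were 0.688%, 0.871%, 1.02% and 0.503%. All intervals cover counting error only, since no spread between mice could be measured.

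The cardiomyocyte genes summed to 44999 CPM (counts per TMM effective library size, set over the 4 libraries) in CLP heart and 32272 in CLP + MLT heart, and to 247 and 234 in the kidneys. Among them, the atrial myosin light chain Myl7 had 1 and 0 counts in the hearts. The 12 proximal tubule genes were present in the hearts as well, at a summed 888 and 1480 CPM, which was 3.86% and 4.28% of their level in the kidney library of the same group. Aqp1 alone gave 431 and 438 of these CPM, and the other 11 genes summed to 457 and 1042 CPM, 2.03% and 3.08% of kidney. That split was made after seeing the values. The 8 collecting duct genes reached 5.95 and 23.1 CPM in the hearts, 0.936% and 3.03% of kidney. What part this kidney signal had in the heart values below was not tested.

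Promoter windows of RefSeq (build GRCm38.p6), from 250 bases before to 50 bases after the start of transcription, were found for 33 of the 38 genes, and Ndufs1, Ndufa2, Ndufa4l2 and Ndufb9 were among those without one. They were searched on both strands for letters bound by regulators of mitochondrial genes. The letters AAGATGGC, a core of the YY1 site, stood in 7 of the 33 windows (21.2%) and in 3.19% of the windows of all 27025 genes. The letters GCATGCGC, from the NRF1 site, stood in 3 (9.09%, all genes 3.05%) and CCGGAAG, from the ETS site of GABP, in 4 (12.1%, all genes 9.93%). TCAAGGTCA, the ERR site, stood in 0 of the 33 and in 0.466% of all. GGGCGG was held by 15 (45.5%, all genes 38.2%), CCAAT by 10 (30.3%, all genes 41.1%) and TATAAA by 4 (12.1%, all genes 15.7%). Matches of 2 different motifs shared bases in 1 gene, Ndufs3 (CCGGAAG and GGGCGG). A match of letters is a description of the window and not a site of binding.

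The 7 matches to AAGATGGC are shown because they shared one placement. All stood on the gene's own strand after the start of transcription, where 1.04% of all genes held these letters, and their first base lay 23 to 39 bases from the start. In all 7 the ATG inside the letters was the annotated start codon (GENCODE M21), so the letters also spell the start of the protein. Each line gives 30 bases, 5′ to 3′, with the letters in capitals, at chr7:3617383-3617412 on the plus strand for Ndufa3, chr6:126849098-126849127 on the minus strand for Ndufa9, chr19:44555393-44555422 on the minus strand for Ndufb8, chr3:51408916-51408945 on the minus strand for Ndufc1, chr13:114388045-114388074 on the minus strand for Ndufs4, chr13:73328433-73328462 on the minus strand for Ndufs6 and chr10:80249461-80249490 on the plus strand for Ndufs7.
Ndufa3: gccgccaagaacAAGATGGCcgggagtaag
Ndufa9: gcattgtgggagAAGATGGCggccgccgtc
Ndufb8: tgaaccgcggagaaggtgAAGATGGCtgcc
Ndufc1: agcctgcggaacAAGATGGCgccgtccgta
Ndufs4: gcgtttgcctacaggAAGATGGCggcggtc
Ndufs6: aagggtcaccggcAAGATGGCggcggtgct
Ndufs7: aaggccgaggccAAGATGGCggcgctggcg

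The 250 bases before the start are shown for the genes with the lowest and the highest log2 ratio in heart (given below) among the 8 genes that had 1 window and no annotated exon there. They are Ndufa9 (chr6:126849145-126849394, minus strand), whose run held none of the letters searched, and Ndufc2 (chr7:97399753-97400002, plus strand), whose run held CCAAT, in capitals.
Ndufa9: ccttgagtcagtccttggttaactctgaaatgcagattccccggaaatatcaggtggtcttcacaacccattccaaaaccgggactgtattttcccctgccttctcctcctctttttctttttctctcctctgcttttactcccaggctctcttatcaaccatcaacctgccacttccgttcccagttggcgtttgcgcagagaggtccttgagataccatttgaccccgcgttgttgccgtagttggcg
Ndufc2: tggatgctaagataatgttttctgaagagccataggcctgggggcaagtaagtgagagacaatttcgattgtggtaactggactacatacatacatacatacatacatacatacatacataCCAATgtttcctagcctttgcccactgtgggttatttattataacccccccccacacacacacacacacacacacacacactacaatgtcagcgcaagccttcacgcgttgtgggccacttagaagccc
The medians over the 7 genes with AAGATGGC were −1.41 in heart and 0.28 in kidney on the scale of log2 ratios used below, and over the 26 without it −1.11 and 0.35. Other letters parted the heart medians in either direction. With and without the letters they were −1.11 and −1.38 for CCGGAAG, and −1.12 and −1.41 for GGGCGG. For GCATGCGC they were −1.38 and −1.23, for TATAAA −1.38 and −1.24, and for CCAAT −1.31 and −1.34. A link of any letters with the ratios was not tested.

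**Figure D1:**
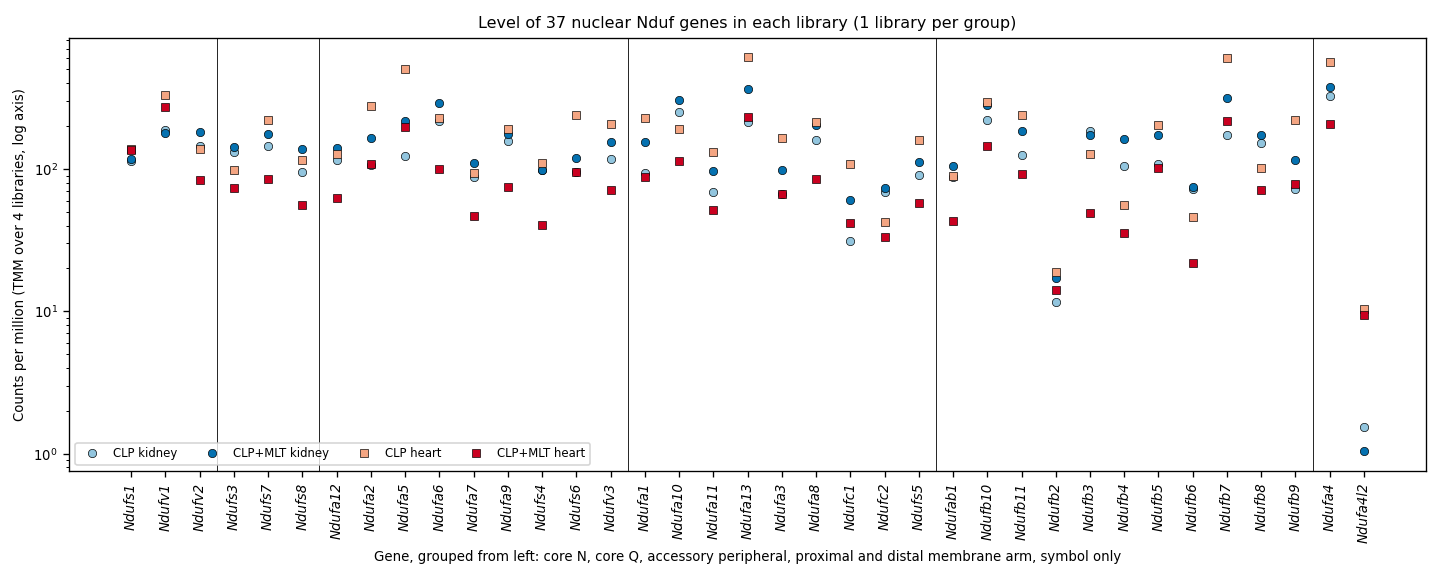
Level of each of 37 of the 38 genes (CPM on a log axis, scaled over the 4 libraries) in each library, grouped by place in the complex. For all 37 genes the CLP + MLT heart square lies below the CLP heart square, and Ndufa4l2 and Ndufb2 are the only genes under 20 CPM in every library.

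In heart, all 38 genes were lower in the CLP + MLT library than in the CLP library. The ratio of CLP + MLT over CLP was taken on the log2 scale after TMM scaling within the tissue, with a 95% exact counting interval. Over the 38 genes the median was −1.29 (medians of the lower and upper bounds −1.39 and −1.19), while the median over all 15871 genes that passed the filter was 0.0023. The share of all genes with a ratio below 0 was 49.8%. At least 1.5-fold lower were 31 of the 38, where the background over all genes was 12.6%, and 0 were at least 1.5-fold higher (background 10.9%). For 30 of the 38 the whole counting interval lay beyond 1.5-fold lower (background 4.45%), and 27 were at least 2-fold lower (background 5.22%). With 1 library per group none of these differences could be tested against the spread between mice. In bulk RNA, fewer cardiomyocytes and less of these RNAs per cardiomyocyte cannot be told apart.

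**Figure D2:**
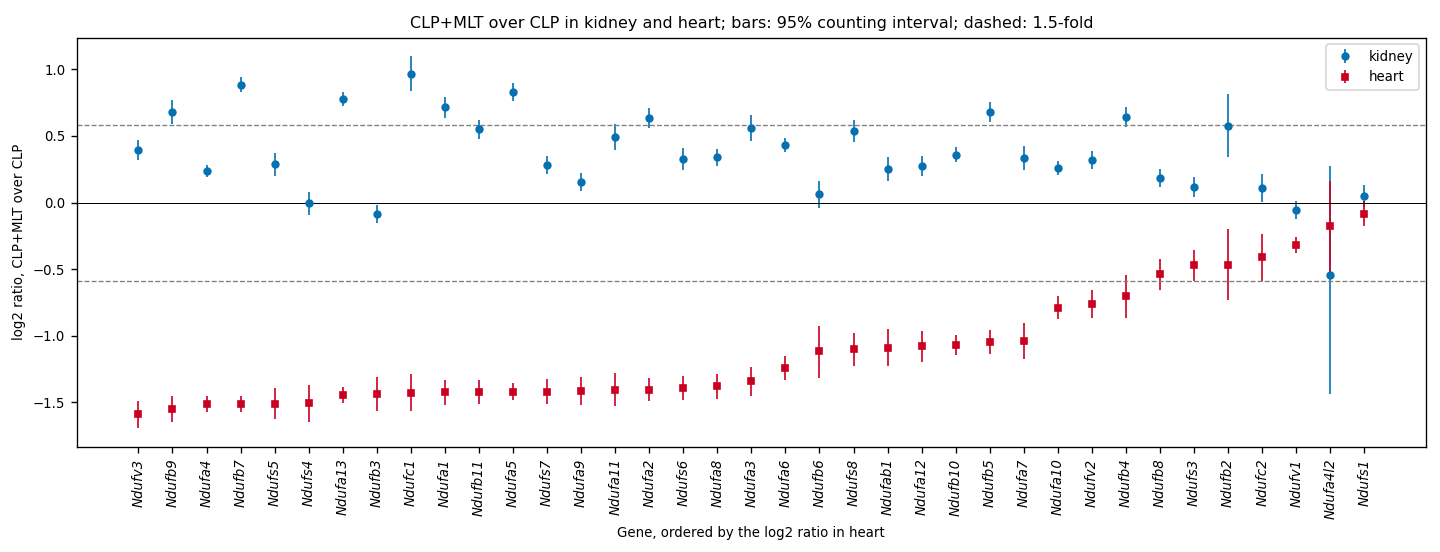
log2 ratio of CLP + MLT over CLP for each of 37 genes in kidney (circles) and heart (squares), ordered by heart, with 95% counting intervals and dashed lines at 1.5-fold. The heart values run from −1.59 to −0.08 and the kidney values from −0.54 to 0.97.

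The core subunits of the N module differed least. Ndufs1, which carries iron-sulfur clusters of the N module, had 2054 counts in CLP heart and 1927 in CLP + MLT heart, a log2 ratio of −0.08 (−0.17 to 0.01). Ndufv1, which holds the flavin and binds NADH, had 4882 and 3891 counts and so a log2 ratio of −0.32 (−0.38 to −0.26). Ndufv2, the iron-sulfur partner of Ndufv1, had 2036 and 1194 counts and a log2 ratio of −0.76 (−0.86 to −0.66). Of these 3 genes, Ndufv2 was thus the one past 1.5-fold, and the interval of Ndufs1 included 0. Genes on the other strand overlap Ndufs1 and Ndufv2, whose counts may hold reads of those genes if the counting ignored strand.

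Of the Q module's core subunits, 3 of 4 were past 1.5-fold lower. Ndufs7, which carries the last iron-sulfur cluster before ubiquinone, had 3272 counts in CLP heart and 1216 in CLP + MLT heart, with a log2 ratio of −1.42 (−1.51 to −1.32). Ndufs8, which carries the clusters that lead to it, had 1705 and 789 counts and so a log2 ratio of −1.10 (−1.23 to −0.98). Ndufs3 had 1457 and 1044 counts and stayed within 1.5-fold at −0.47 (−0.59 to −0.36). A pseudogene nearly identical to Ndufs3 exists, so its reads may be shared. Over all 7 core subunits the median was −0.76 and 4 were past 1.5-fold lower.

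The accessory subunits had a median log2 ratio of −1.39, with 26 of 29 at least 1.5-fold lower. In the peripheral arm, 9 of 9 were past 1.5-fold lower (median −1.40). Among them, Ndufv3, a small subunit of the N module, had 3069 counts in CLP heart and 1013 in CLP + MLT heart. This was the lowest log2 ratio of the 38 genes, −1.59 (−1.69 to −1.49). Ndufa5, attached to the Q module, had 7510 and 2787 counts and so a log2 ratio of −1.42 (−1.48 to −1.36). Ndufa2, attached to the N module, had 4110 and 1542 counts and a log2 ratio of −1.40 (−1.49 to −1.32). A gene on the other strand overlaps Ndufa2, and the strand setting of the counting is not given.

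In the proximal part of the membrane arm, 8 of 9 accessory subunits were past 1.5-fold lower (median −1.41). Ndufs5, a subunit on the intermembrane-space side, had 2349 counts in CLP heart and 819 in CLP + MLT heart, a log2 ratio of −1.51 (−1.63 to −1.39). Ndufa13, also known as GRIM-19, had 9009 and 3291 counts, at −1.44 (−1.50 to −1.39). Ndufc1, a single-pass membrane subunit, had 1602 and 592 counts, at −1.43 (−1.56 to −1.29). Ndufa1, likewise a small membrane subunit, had 3349 and 1241 counts, at −1.42 (−1.52 to −1.33). The exception was Ndufc2, the partner of Ndufc1, with 630 and 471 counts and a log2 ratio of −0.41 (−0.59 to −0.24).

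In the distal part of the membrane arm, 9 of 11 were past 1.5-fold lower (median −1.09). Ndufb9, which binds the mitochondrial acyl carrier protein, had 3281 counts in CLP heart and 1115 in CLP + MLT heart, a log2 ratio of −1.55 (−1.65 to −1.45). Ndufb7, an intermembrane-space subunit, had 8887 and 3098 counts, at −1.51 (−1.57 to −1.45). Ndufb5 had 3004 and 1447 counts, at −1.04 (−1.14 to −0.95). Ndufb6 had 680 and 311 counts, at −1.12 (−1.32 to −0.92), and Ndufb4 had 826 and 504, at −0.70 (−0.87 to −0.54). Ndufb2 had 281 and 202 counts and a log2 ratio of −0.47 (−0.73 to −0.20). It overlaps another gene on its own strand, so its count may be uncertain, as may that of Ndufb9 for the same reason and of Ndufb4 for a nearly identical pseudogene.

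Outside both sets, Ndufa4 and Ndufa4l2 differed from each other. Ndufa4 had 8404 counts in CLP heart and 2925 in CLP + MLT heart, a log2 ratio of −1.51 (−1.57 to −1.45). Ndufa4l2 had 154 and 135 counts, and the interval of its log2 ratio, −0.18 (−0.52 to 0.16), included 0. The other 15 genes had between 1321 and 4338 counts in CLP heart (median 2439) and between 572 and 2055 in CLP + MLT heart (median 1020). Their log2 ratios ran from −1.50 for Ndufs4 to −0.54 for Ndufb8, with a median of −1.34, and Ndufb8 was the only one of them within 1.5-fold.

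In kidney, the ratios were smaller and most were above 0. The median of the log2 ratios was 0.33 (medians of the bounds 0.25 and 0.41), beside 0.0029 over all 16932 genes that passed the filter. Above 0 were 33 of the 38 (background 50.3%). At least 1.5-fold higher were 9 genes, all of them accessory (background 11.0%), 7 of them with the whole counting interval beyond 1.5-fold (background 3.57%), and 0 were 1.5-fold lower (background 11.6%). With the libraries scaled by their size only, which moved the median of all genes to −0.19, 27 were above 0, the median was 0.14, 3 were past 1.5-fold higher and 1, Ndufa4l2, was past 1.5-fold lower. The share of mitochondrial counts differed between the kidney libraries too, at 14.8% and 24.2%, and its part in the kidney values was not tested. The median and the count at 1.5-fold were 0.33 and 9 without the mitochondrial and haemoglobin genes.

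The 9 genes past 1.5-fold in kidney came from all 3 parts of the accessory set. In the proximal membrane arm, Ndufc1 had 850 counts in CLP kidney and 1042 in CLP + MLT kidney, a log2 ratio of 0.97 (0.83 to 1.10) after scaling, the highest of the 38. Ndufa13 had 5900 and 6339 counts, at 0.78 (0.72 to 0.83), and Ndufa1 had 2581 and 2660, at 0.72 (0.64 to 0.79). In the distal membrane arm, Ndufb7 had 4732 and 5478 counts, at 0.88 (0.83 to 0.94). The raw counts of these genes differed less than the ratios, because the scaling divides by the smaller effective size of the CLP + MLT library.

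Ndufb9 had 1974 counts in CLP kidney and 1985 in CLP + MLT kidney, a log2 ratio of 0.68 (0.59 to 0.77). Ndufb5 had 2992 and 3005 counts, at 0.68 (0.60 to 0.75), and Ndufb4 had 2877 and 2816, at 0.64 (0.57 to 0.72). In the peripheral arm, Ndufa5 had 3389 and 3774 counts, at 0.83 (0.76 to 0.89), and Ndufa2 had 2935 and 2858, at 0.63 (0.56 to 0.71). The intervals of Ndufa2 and Ndufb4 reached below 1.5-fold.

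No core subunit was past 1.5-fold in kidney, where their median was 0.12. Ndufs8 had 2603 counts in CLP kidney and 2367 in CLP + MLT kidney, at 0.53 (0.45 to 0.62), and Ndufv2 had 3983 and 3125, at 0.32 (0.25 to 0.39). Ndufs7 had 3968 and 3033 counts, at 0.28 (0.22 to 0.35), and Ndufs3 had 3635 and 2471, at 0.12 (0.04 to 0.19). Ndufs1 and Ndufv1 lay close to 0. Ndufs1 had 3131 and 2032 counts, at 0.05 (−0.03 to 0.13), and Ndufv1 had 5142 and 3106, at −0.06 (−0.12 to 0.01).

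By role, the kidney medians were 0.33 in the peripheral arm, 0.49 in the proximal and 0.55 in the distal membrane arm. Ndufv3 had 3226 counts in CLP kidney and 2662 in CLP + MLT kidney, at 0.39 (0.32 to 0.47), and Ndufs5 had 2504 and 1920, at 0.29 (0.20 to 0.38). Ndufc2 had 1882 and 1274 counts, at 0.11 (0.01 to 0.21), Ndufb2 had 317 and 297, at 0.58 (0.34 to 0.81), and Ndufb6 had 1979 and 1297, at 0.06 (−0.04 to 0.16). Ndufa4 had 8871 and 6550 counts, at 0.23 (0.19 to 0.28). Ndufa4l2 had 42 and 18 counts in kidney, too few to tell its log2 ratio of −0.54 (−1.43 to 0.28) from 0. The other 15 genes ran from −0.09 for Ndufb3 to 0.56 for Ndufa3, with a median of 0.33. They had between 1842 and 6956 counts in CLP kidney and between 1677 and 5231 in CLP + MLT kidney.

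The ratios of heart and kidney therefore lay apart. The difference, heart minus kidney, had a median of −1.60 on the log2 scale (medians of the bounds −1.73 and −1.47). Above 0 in kidney and below 0 in heart were 33 of the 38 genes, where 24.6% of the 14592 genes that passed the filter in both tissues were. At least 1.5-fold higher in kidney and at least 1.5-fold lower in heart were 9 genes (background 1.58%). Ndufc1 and Ndufb7 had the largest differences among these 9, both −2.39, and Ndufb4 the smallest, −1.34. Without replicates the difference between the tissues could not be tested against the spread between mice.

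Between the tissues, the median over the 38 genes changed sign with the group. In the CLP libraries, scaled over all 4 libraries, the median log2 ratio of heart over kidney was 0.58, and in the CLP + MLT libraries it was −0.96. The medians over all genes were −0.089 and −0.024. Under CLP, 30 of the 38 were higher in heart, as were 8331 of all 17419 genes that passed the filter. At least 1.5-fold higher were 19 (background 33.5%), while 4 were at least 1.5-fold lower (background 37.3%). Under CLP + MLT, 35 of the 38 were lower in heart, as were 8474 of all 16729 genes that passed the filter. At least 1.5-fold lower were 27 (background 36.4%), while 2 were at least 1.5-fold higher (background 34.7%). In 27 genes heart was the higher tissue under CLP and kidney under CLP + MLT, in 3 heart was higher and in 8 lower under both. These counts depended on the scaling. By library size only, the medians were 0.15 and −1.19, with 20 genes higher in heart under CLP and 36 lower under CLP + MLT. With that scaling 18 changed order between the groups, with 2 higher and 18 lower in heart under both. The share of all genes that changed order was not determined under either scaling. The counts of genes that changed order therefore do not set the 38 genes apart from other genes.

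**Figure D3:**
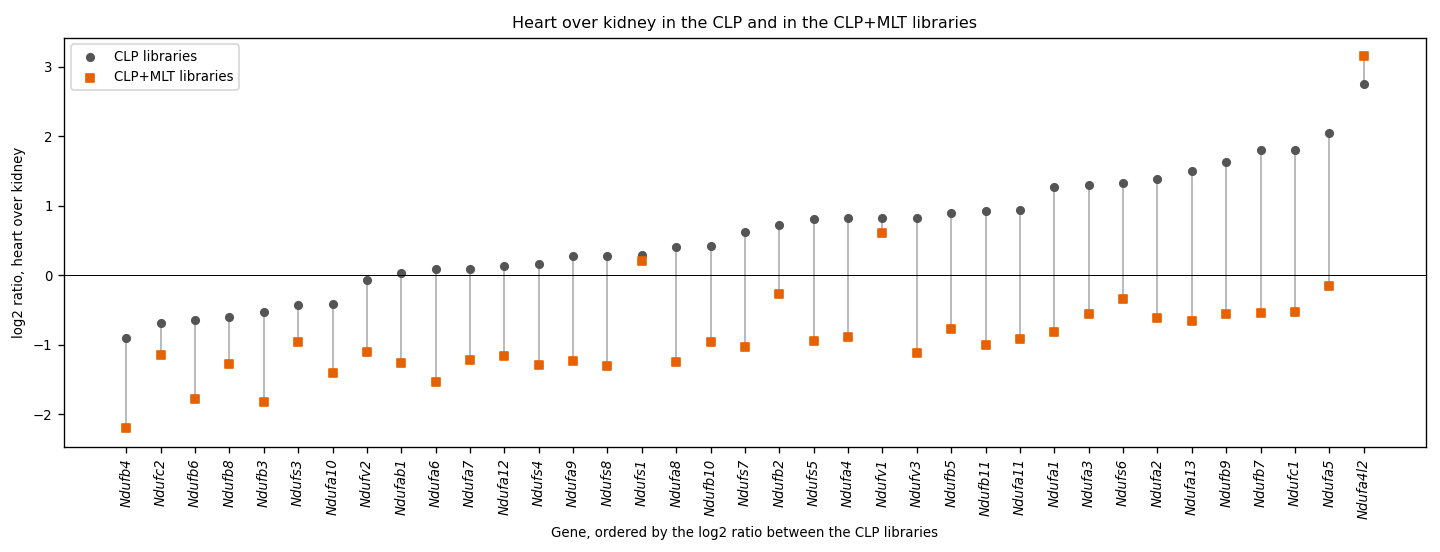
log2 ratio of heart over kidney for each of 37 genes between the CLP libraries (circles) and between the CLP + MLT libraries (squares), ordered by the CLP value. The CLP values run from −0.91 to 2.75 and the CLP + MLT values from −2.20 to 3.15, and the squares lie below the circles for all genes drawn but Ndufa4l2.

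Ndufa4l2 had the highest ratio of heart over kidney. Its level was 1.53 CPM in CLP kidney, 1.04 in CLP + MLT kidney, 10.4 in CLP heart and 9.49 in CLP + MLT heart, so that heart was higher by 2.75 (2.27 to 3.30) on the log2 scale under CLP and by 3.15 (2.47 to 3.98) under CLP + MLT. Next under CLP came Ndufa5, with 123 CPM in CLP kidney and 508 in CLP heart (log2 ratio 2.04), and Ndufc1, with 31.0 and 108 CPM (log2 ratio 1.81). Under CLP + MLT these were 219 and 196 CPM for Ndufa5 and 60.4 and 41.6 for Ndufc1, at log2 ratios of −0.16 and −0.54. The intervals of Ndufc1 (1.69 to 1.93) and of the next gene, Ndufb7 (1.75 to 1.85), overlapped under CLP.

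At the other end under CLP were Ndufb4, Ndufc2 and Ndufb6. Ndufb4 had 105 CPM in CLP kidney and 55.8 in CLP heart, and 163 and 35.4 CPM in the CLP + MLT libraries (log2 ratios −0.91 and −2.20). Ndufc2 had 68.5 and 42.6 CPM under CLP and 73.8 and 33.1 under CLP + MLT (−0.69 and −1.16). Ndufb6 had 72.1 and 46.0, then 75.1 and 21.9 (−0.65 and −1.78). The intervals of Ndufc2 and Ndufb6 under CLP overlapped. All 3 were lower in heart in both groups.

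For the tissues a test was possible, though its p-values do not measure the spread between mice. The edgeR quasi-likelihood test, with treatment and tissue as terms, left 1 residual degree of freedom, which consisted of the tissue by treatment differences themselves. The test also drew on a spread shared over all genes, worth 8.80 prior degrees of freedom. It called 9 of the 38 at an adjusted p of at most 0.05, against 16 (1 higher and 15 lower in heart) with scaling by library size only and 13 (4 higher and 9 lower) with no filter. Higher in heart were 2, Ndufa4l2 (log2 2.95, adjusted p = 0.000149) and Ndufv1 (log2 0.71, adjusted p = 0.0358), and the background over the 17088 genes tested was 28.4%. Lower in heart were 7, namely Ndufb4, Ndufb6, Ndufb3, Ndufb8, Ndufc2, Ndufa10 and Ndufs3, with log2 values from −1.55 to −0.69 (background 29.9%). Each of these 7 has a nearly identical copy or overlaps another gene, so its count may be uncertain. Of all 38 genes, 14 have neither. Ndufa4l2 overlaps a gene on the other strand, and Ndufv1 has neither a copy nor an overlap. The other 29 did not pass, among them Ndufa5 with a log2 value of 0.94 and an adjusted p of 0.107.

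Levels between genes were compared as CPM per kilobase of mRNA. Ndufa4 was the highest of the 38 in both tissues, at 702 in CLP kidney, 825 in CLP + MLT kidney, 1235 in CLP heart and 447 in CLP + MLT heart. The lowest in kidney was Ndufa4l2, at 1.64 and 1.12. In heart the lowest was Ndufb2, at 7.87 and 5.89, and Ndufa4l2 lay just above at 11.1 and 10.2. The core subunits did not share one level, since in CLP heart they ran from 52.9 for Ndufs1 to 254 for Ndufs7. In CLP + MLT heart, Ndufv1 was the highest core subunit at 179, and Ndufs7 was at 98.2.

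The assembly factors of complex I, which build it but are not part of it, lay closer to 0 than the subunits in heart. Of the 18 listed in the files, 4 were at least 1.5-fold lower (background 12.6%) and 0 higher (background 10.9%). Their median log2 ratio was −0.18. The lowest were Ecsit (1085 counts in CLP heart and 581 in CLP + MLT heart, −0.89), Ndufaf8 (307 and 180, −0.76) and Dmac1 (291 and 172, −0.75). In kidney 0 of the 18 were past 1.5-fold (background 11.0% higher and 11.6% lower), and 9 lay above and 9 below 0.

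The mitochondrially encoded subunits lay mostly on the other side of 0 in heart. Of the 7, 6 lay above 0 in heart and within 1.5-fold, from 0.11 for mt-Nd4 to 0.52 for mt-Nd5, with mt-Nd1 and mt-Nd6 at 0.14, mt-Nd2 at 0.24 and mt-Nd4l at 0.35. The exception was mt-Nd3, with 21130 counts in CLP heart and 6414 in CLP + MLT heart, a log2 ratio of −1.71 (−1.75 to −1.67). In kidney, 6 of 7 were at least 1.5-fold higher (background 11.0%) with a median of 0.83. There mt-Nd3, with 5472 and 14712 counts, had the highest log2 ratio, followed by mt-Nd6 at 1.23, mt-Nd4 at 1.07, mt-Nd2 at 0.83, mt-Nd1 and mt-Nd5 at 0.76 and mt-Nd4l at 0.45.

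The nuclear subunits of the other complexes that pump protons or make ATP had medians near that of complex I. In heart, 7 of 9 genes of complex III were at least 1.5-fold lower (median −1.27), led by Uqcr11 (6299 and 1890 counts, −1.73), Uqcrq (−1.55) and Uqcr10 (−1.35). Of complex IV, 11 of 16 were (median −1.15), led by the muscle isoforms Cox7a1 (5421 and 1399 counts, −1.94) and Cox8b (4840 and 1348, −1.83) and by Cox5b (−1.64). Of ATP synthase and its inhibitor, 14 of 15 were (median −1.30), led by Atp5j2 (8473 and 2792 counts, −1.59), Atp5k (−1.52) and Atp5e (−1.49). None of these 3 lists had a gene 1.5-fold higher in heart. The background over all genes in heart was 12.6% lower and 10.9% higher. In complex II, which feeds electrons from succinate and pumps no protons, Sdhb was lower at −1.36 (7525 and 2902 counts) and the other 3 genes lay between −0.10 and −0.03.

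In kidney the medians were 0.13 for complex III, 0.34 for complex IV and 0.35 for ATP synthase, beside −0.07 for complex II. The past-1.5-fold counts were 1 of 9, 1 of 15 and 2 of 15 higher in the lists of complexes III, IV and ATP synthase. In complex IV 2 genes were lower, Cox4i2 (32 and 4 counts) and Cox6a2 (34 and 10 counts). The background over all genes in kidney was 11.0% higher and 11.6% lower, so these counts are near it. The small subunit of the mitochondrial ribosome had medians of 0.07 in kidney and −0.39 in heart. There 10 of 29 genes were at least 1.5-fold lower (background in heart 12.6%) and 1, Mrps22 (43 and 66 counts), higher (background 10.9%). The lowest were Mrps21 (−1.31), Mrps35 (−1.21) and Mrps12 (−1.04).

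Of the 11 regulators of mitochondrial biogenesis, 2 were at least 1.5-fold higher in heart (background 10.9%) and 0 lower (background 12.6%). Their median was 0.08. Ppargc1b, a coactivator of respiratory genes, had 56 counts in CLP heart and 121 in CLP + MLT heart, a log2 ratio of 1.11 (0.65 to 1.61). Esrra, the receptor that binds the ERR site searched for above, had 2538 and 3826 counts, at 0.60 (0.53 to 0.67). In kidney 0 of the 11 were past 1.5-fold (background 11.0% higher and 11.6% lower) and their median was −0.04.

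**Figure D4:**
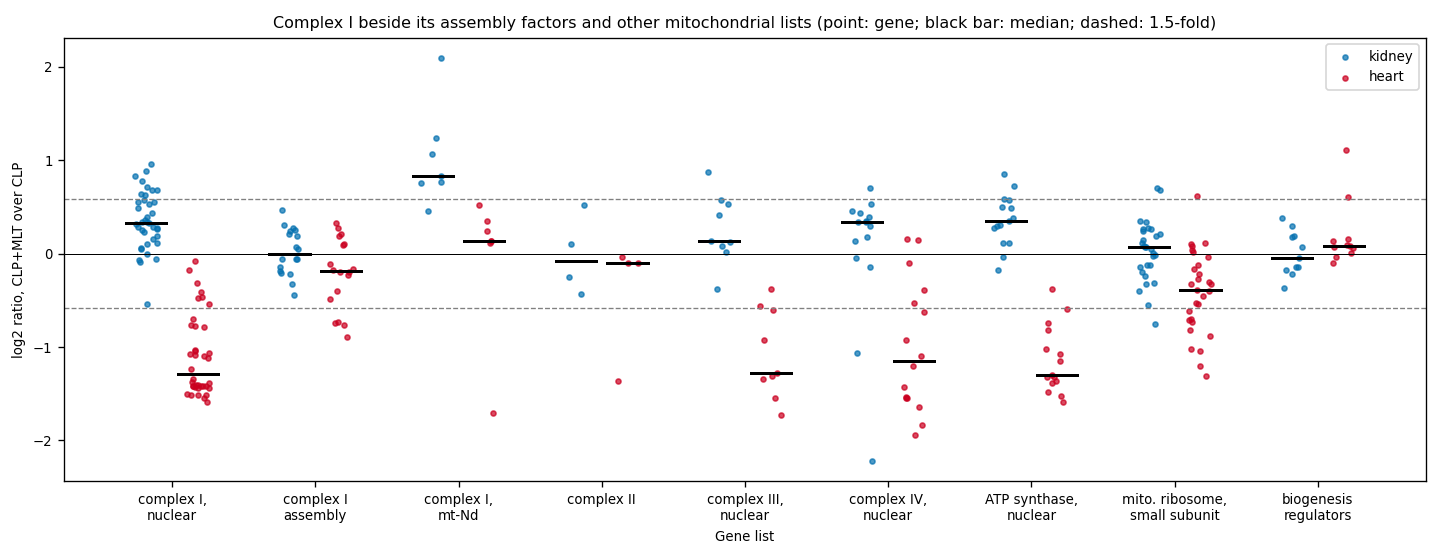
log2 ratio of CLP + MLT over CLP for each gene of 9 lists in kidney (left of each pair) and heart (right), with the median as a black bar and dashed lines at 1.5-fold. The heart medians are −1.29, −1.27, −1.15 and −1.30 for the nuclear genes of complexes I, III, IV and ATP synthase, beside −0.18 for the assembly factors and 0.14 for the mt-Nd genes.

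Cell type markers are given for heart as well. The background over all genes was 12.6% at least 1.5-fold lower and 10.9% at least 1.5-fold higher. In a list of 8, 1 gene past 1.5-fold is near these shares. Of 14 cardiomyocyte genes, 5 were at least 1.5-fold lower and 0 higher (median −0.45). They were Tnnc1 (−1.68), Myl3 (−1.46), Myl2 (−1.33), Tnni3 (−1.27) and Nppa (−1.17), of which the first 3 had the largest change. Of 12 proximal tubule genes in the hearts, 8 were at least 1.5-fold higher and 1 lower (median 1.08), led by Slc13a3 (1.57), Slc27a2 (1.50) and Lrp2 (1.50). Collecting duct genes had few counts in CLP heart (26 at most), and several passed the filter through CLP + MLT heart alone, so only their summed level, given above, is reported. Of 8 endothelial genes, Kdr was past 1.5-fold higher at 0.91 and none lower, and of 9 macrophage and monocyte genes 2 were higher (Adgre1 at 1.56 and Lyz2 at 1.13) and C1qa lower at −0.80. Of 8 fibroblast genes, Col1a1 was lower at −0.92, of 8 smooth muscle and pericyte genes Des was lower at −1.36, and none of these 16 was higher. Des had 1073 CPM in CLP heart, and the next highest gene of its list, Rgs5, had 305. Which cells the counts of Des came from was not tested. Of 5 erythroid genes none was past 1.5-fold. Of the thick ascending limb and distal tubule, Slc12a1 was higher at 1.59, and Pvalb, which is also on the skeletal muscle list, had 0 and 20 counts and passed the filter through CLP + MLT heart alone. Of the other skeletal muscle genes past the filter, Mylpf was higher at 0.96, and Acta1 (−1.45), Tnnt3 (−1.07) and Tnni2 (−3.30) were lower, while Myh1, Myh2 and Myh4 had 0 counts in every library. The part of these cell types in the complex I values was not tested.

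In kidney, 5 of 12 proximal tubule genes were at least 1.5-fold higher and 3 lower (median 0.51), with Slc5a12 (955 and 60 counts, −3.31) and Slc5a2 (4771 and 637 counts, −2.23) the lowest. Their summed level was 22993 CPM in CLP kidney and 34600 in CLP + MLT kidney. Of 8 genes of the thick ascending limb and distal tubule, 3 were higher and 0 lower, and of 8 collecting duct genes 3 were higher and 0 lower. Endothelial genes had a median of −0.37, with 1 of 8 past 1.5-fold lower. Of 9 macrophage and monocyte genes 4 were higher and 1 lower, with Cd14 at −2.83, Lyz2 at 1.81 and Csf1r at 1.13. Fibroblast and erythroid genes had 1 higher and 1 lower each, and 0 of 8 smooth muscle and pericyte genes were past 1.5-fold. The background over all genes in kidney was 11.0% higher and 11.6% lower, so lists with 1 such gene are near it. The part of these cells in the kidney values was not tested.

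Length of the mRNA moved with the ratios. The 38 mRNAs were short, from 382 to 2626 bases with a median of 810. Over all protein-coding genes the heart median was −0.44 for mRNAs under 600 bases, −0.25 from 600 to 1000, −0.079 from 1000 to 2000, 0.021 from 2000 to 4000 and 0.075 for longer ones. In heart the 31 complex I genes under 1500 bases had a median of −1.39, and the 6 longer ones reported singly one of −0.63 (−1.50 to −0.08). In kidney the direction was the other one, with 0.31 over all protein-coding genes under 600 bases, 0.36 over the 31 complex I genes under 1500 bases and 0.15 over the 6 longer ones. With the trend on mRNA length over all genes removed, the medians of the 38 were −1.12 in heart and 0.28 in kidney, and all 38 remained below 0 in heart. Ndufs1 and Ndufv1, core subunits of the N module, were among the 6 longer genes. The part of length in the differences by role was not tested.

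**Figure D5:**
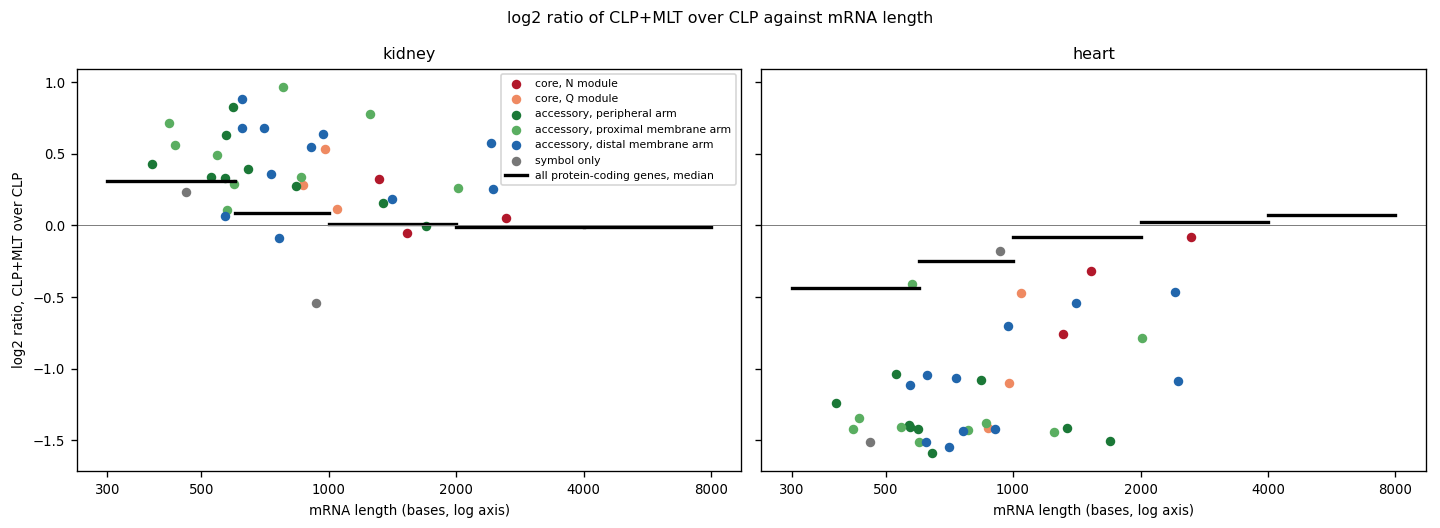
log2 ratio of CLP + MLT over CLP against mRNA length (log axis) for 37 of the 38 genes, coloured by role, in kidney (left) and heart (right), with black bars for the median of all protein-coding genes in 5 length classes (outer classes drawn cut short). In heart all but 3 of the points under 1500 bases lie below −0.5, while the bars run from −0.44 to 0.075.

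Counts of some genes may be uncertain. A nearly identical copy (at least 95% over at least 200 bases) was found for 8 of the 38 genes (Ndufa12, Ndufab1, Ndufb3, Ndufb4, Ndufb11, Ndufs3, Ndufs5 and Ndufs6). Another gene overlapped 6 on the same strand (Ndufa10, Ndufa13, Ndufb2, Ndufb8, Ndufb9 and Ndufc2) and 16 on the other strand. Overlap was scored between whole genes, introns included, so it need not touch the exons that were counted. The 14 free of any copy or overlap had a median log2 ratio of −1.42 in heart and 0.38 in kidney.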

How the data were processed

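Poly(A) RNA was sequenced, and the authors trimmed the reads and aligned them to mm10. The submitters' processing notes name HISAT2 2.1.0 and HTSeq. The deposited files hold raw, unnormalized read counts by gene, 1 file a library. The sources used here do not give the strand setting or the annotation of the counting. The 5 closing totals of each file, which name no gene, were left out. Reads on no gene made up 29.6 to 37.7% of a file, and reads placed more than once, which were not counted, made up 23.6 to 38.6%.

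Identifiers were matched without version to GENCODE M21 (55141 of 55401 named). A mean count of 10 or more was required of a gene. The log2 ratios used TMM factors of edgeR 4.0.16 in R 4.3.3, within each tissue for CLP + MLT over CLP and over the 4 libraries for heart over kidney, after adding a prior count of 0.5, in proportion to library size. Intervals of the shares and log2 ratios are 95% exact Clopper-Pearson intervals of the counts. The bounds of the heart minus kidney differences are 95% normal approximations from the summed reciprocals of the 4 counts. PCR copies are not independent molecules, so all these intervals cover counting error only. The study states a fold change of 1.5 and a p-value, but a single library in each group leaves no residual within a tissue, so the fold alone was used there. A treatment effect over both tissues, which the model below could give, was not tested. Heart was tested against kidney over all genes with the edgeR quasi-likelihood test, with treatment as covariate and Benjamini-Hochberg adjustment. The procedures were tested on simulated data. For the ratios these held counting error only. For the tissue test they held a spread smaller than the fitted one and no tissue by treatment differences. The simulations therefore do not show how the procedures perform under the spread between mice. Python 3.11.15 served for the rest (scipy 1.17.1 for intervals, pandas 2.3.3 and numpy 2.4.6 for tables, matplotlib 3.10.9 for plots). Alternatives were other scalings (library size, DESeq2 1.42.0 size factors, upper quartile, without mitochondrial and haemoglobin genes), filters, a prior count of 5, other thresholds, and removal of trends on length or GC.

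The 38 genes, the gene lists and the tests were chosen with earlier results of these data known. The lists were written from general knowledge, and Coa1 and Atp5pb were not found under those symbols. By the rule for named genes, values in every library are given for the core subunits, genes past 1.5-fold in kidney, the 5 lowest and 5 highest heart ratios, the extremes of level per length, the 3 highest and 3 lowest heart over kidney ratios under CLP, and Ndufa4 and Ndufa4l2. From other lists, up to 3 genes past 1.5-fold with the largest change are named, and the mt-Nd genes. Others were picked with their values in view. The values of 1 of the 38 genes are not reported here singly, and it enters counts and medians only.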

Additional observations from a re-analysis of the deposited data

Results flagged for a closer look

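The ratio of CLP + MLT over CLP differed between heart and kidney, with a median of −1.60 (heart minus kidney, log2) over the 38 genes. For 9 genes the ratio was past 1.5-fold higher in kidney and past 1.5-fold lower in heart. Their differences were −2.39 for Ndufb7, −2.39 for Ndufc1, −2.25 for Ndufa5, −2.23 for Ndufb9, −2.22 for Ndufa13, −2.14 for Ndufa1, −2.04 for Ndufa2, −1.72 for Ndufb5 and −1.34 for Ndufb4. None of these differences was tested, since each rests on 4 libraries with no replicate.

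Reads were also counted on genes named after complex I subunits that are not protein-coding in the annotation and so were not among the 38. In the library with the most, Ndufb1-ps had 1101 counts, Ndufb4c 538, Ndufab1-ps 151 and Ndufs6b 136. Across CLP kidney, CLP + MLT kidney, CLP heart and CLP + MLT heart, Ndufb1-ps had 1101, 889, 974 and 427 counts. Ndufb4c had 538, 283, 94 and 66, Ndufab1-ps had 151, 89, 115 and 25, and Ndufs6b had 61, 86, 136 and 39. Of these, Ndufb4c, Ndufab1-ps and Ndufs6b are processed pseudogenes nearly identical to Ndufb4, Ndufab1 and Ndufs6, so reads of parent and copy cannot be told apart by counts alone.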

How the results depend on the processing

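Of the values for single genes, 662 of 759 moved by less than their counting interval under the alternatives, 97 moved by more and 0 called values reversed. The 662 include the values under the other filters, which could not move, because a filter only keeps or drops a gene. All 38 genes were below 0 in heart under each alternative that gave single-gene values. The count past 1.5-fold lower in heart stayed 31 under each scaling and prior count tried. All 38 genes passed every filter in heart, so the filters could not change that count. With scaling by library size only, the kidney median was 0.14 with 4 genes past 1.5-fold, the heart minus kidney median −1.35, the heart over kidney medians 0.15 (CLP) and −1.19 (CLP + MLT), and the tissue test called 16 genes, 1 higher and 15 lower in heart. That scaling put the median of all genes at −0.19 in kidney, 0.058 in heart and, for heart over kidney, −0.51 (CLP) and −0.25 (CLP + MLT), and moved the share of higher among all 1.5-fold calls in kidney from 48.6% to 26.6%, and for heart over kidney under CLP from 47.3% to 34.1%. At 2-fold, 0 genes were past the threshold in kidney. In heart the median was −1.16 with the trend on exonic length removed, −1.12 with that on mRNA length (heart minus kidney −1.44) and −1.42 without genes that overlap another or have a copy. The mRNA length, GC and overlap alternatives were chosen after seeing the data. The tissue test called 13 genes with no filter, 8 with DESeq2 and 6 at an adjusted p of at most 0.01. The causes of these shifts were not tested. No paired analysis was possible because each group holds 1 library. For the same reason no library could be left out. Depth limits Ndufa4l2 in kidney, with 42 and 18 counts.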

Other observations

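Some genes of complex IV and of the sarcomere, chosen after their values were seen, are given for heart. Complex IV has heart and muscle isoforms beside widely expressed ones. Cox6a2, the muscle isoform, had 18266 counts in CLP heart and 6203 in CLP + MLT heart (log2 ratio −1.55), while the widely expressed Cox6a1 had 862 and 798 (−0.10). Likewise Cox8b had 4840 and 1348 counts (−1.83) and Cox8a 838 and 923 (0.15, 0.01 to 0.29). The Cox7a pair did not part in this way. Cox7a1, the muscle isoform, was at −1.94 and the widely expressed Cox7a2 at −1.21 (2485 and 1069 counts). In the Cox4 pair, where neither is taken here as a muscle isoform, the widely expressed Cox4i1 was at −1.54 and Cox4i2 at −0.52. Of the sarcomere genes, Tnnc1, Myl3, Myl2 and Tnni3 lay between −1.68 and −1.27, Tnnt2 at −0.51 and Myh6 at −0.39, and Mybpc3 at 0.12, titin (Ttn, 50592 and 57632 counts) at 0.20 and Actc1 at 0.47.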
